A study of Mus musculus with 6 samples.

Results

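The genes described here encode the nuclear subunits of the 5 complexes of oxidative phosphorylation in mitochondria. They were taken from the platform's annotation of probe sets as every gene whose symbol begins with Nduf, Uqcr, Cox4, Cox5, Cox6, Cox7, Cox8 or Atp5, together with Sdha, Sdhb, Sdhc, Sdhd, Cyc1 and Cycs. The rule uses names and no measured value. It gave 92 genes out of 18193 with a probe set of their own, and 88 of the 92 lay among the 10916 genes bright enough to be tested. By complex, 34 genes belonged to complex I, 8 to its assembly factors, 4 to complex II, 9 to complex III, 1 was cytochrome c, 19 belonged to complex IV and 17 to complex V; the 4 genes not tested were all of complex IV. Another 10 probe sets that the annotation assigns to several genes at once, an oxidative phosphorylation gene among them, were not used.

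Regulatory T cells (Treg) are CD4 T cells marked by the transcription factor Foxp3, and both groups of 3 one-colour Affymetrix arrays hold such cells from mesenteric lymph nodes of BALB/c mice aged 4 to 6 weeks. The induced Treg (iTreg) came from TBmc mice carrying a Foxp3 GFP reporter, after 1 week of ovalbumin at 1% by mouth, and were negative for Nrp. TBmc mice carry 1 T cell receptor specific for ovalbumin and 1 B cell receptor, so their T cells do not represent a normal repertoire. The comparison group is total Treg of wild type (WT) Foxp3 GFP mice, for which the labels give no feeding. The mouse line, the receptor, the feeding and the gate differ together, and their parts in any difference cannot be told apart. The labels of 1 array of each group go against its title: WT replicate 1 is labelled Nrp negative, and the strain of iTreg replicate 1 is given without TBmc.

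Complex I takes electrons from NADH and complex II from succinate, and both pass them through coenzyme Q to complex III. Cytochrome c carries them on to complex IV, which reduces oxygen, and complex V makes ATP from the proton gradient that complexes I, III and IV build. Each complex other than complex II also holds subunits encoded by mitochondrial DNA, which the rule does not include. Treg are known to rely on mitochondrial respiration more than effector T cells do.

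On these arrays the defining genes of CD4 T cells were present in both groups: 7 of 7 measured markers lay above the brightest unspiked control probe set, 28.5 in signal, on every array. Of 8 Treg markers 7 did so, Foxp3 itself having signals of 9.16 to 54.6. The summed signal of the 8 Treg markers was 11593 to 14211 in iTreg and 17365 to 20935 in WT Treg. Markers of other cells differed in level. The summed signal of 5 B cell genes was 51.6 to 110.4 in iTreg and 57.6 to 117.9 in WT, and that of 6 myeloid genes 79.1 to 117.9 against 54.98 to 57.1. Of both sets 0 genes lay above the controls on every array, so these sums are near the background. The summed signal of 4 epithelial genes was 49.4 to 82.2 in iTreg and 115.9 to 361.1 in WT, where most of it came from Epcam. Both CD8 T cell genes lay above the controls on every array, with sums of 100.5, 225.3 and 103.6 in iTreg and 107.2, 73.5 and 73.2 in WT. The sum of 3 plasma cell genes was 296.1 to 609.6 in iTreg and 548.1 to 883.9 in WT, nearly all of it Xbp1, with Jchain and Sdc1 at or below the controls on every array. The sum of 5 stromal genes was 366.9 to 799.6 against 361.5 to 416.4, nearly all of it Pecam1, and that of 4 dendritic cell genes 61.3 to 194.7 against 70.3 to 91.1. Among the dendritic cell genes only Zbtb46 lay above the controls, and the other 3 were at or below them on every array. The part of all these markers in the results below was not tested. In sorted bulk cells, fewer cells of a kind and less RNA per cell cannot be told apart, and since the labels do not say that replicates are separate animals, p-values describe how far these arrays scatter, and that scatter may be technical.

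No oxidative phosphorylation gene passed the test between iTreg and WT Treg. With limma's moderated test and Benjamini-Hochberg adjustment at 0.05 over all genes tested, 0 of 88 members were lower and 0 higher, where 0.0275% of all genes tested were called. The lowest adjusted p of a member was 0.556. At an unadjusted p under 0.05, 6 members were lower in iTreg and 0 higher; that is 6.82% lower, against 4.58% lower and 3% higher among all genes tested. The 3 iTreg arrays all lay below the 3 WT arrays for 7 members, 7.95% against 7.78% of all genes tested, and above them for 1 member against 5.1% of all genes. The share of members whose groups parted in the lower direction was thus close to that of the whole array.

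The members leaned in one direction by small amounts. Their median log2 difference, iTreg minus WT on the log2(signal + 16) scale, was -0.23, against -0.030 over all genes tested, and 65 of 88 differences (73.9%) were negative against 52.8% of all genes. The range was -1.06 to 0.54, with 26 members at or past 0.5 in size and 3 at or past 1. Its upper end was Ndufb1, named here after its value was seen, whose mean signals of 26.6 in iTreg and 15.1 in WT lay within the controls' range. By complex the median was -0.19 for complex I, -0.56 for its assembly factors, -0.18 for complex II, -0.27 for complex III, -0.076 for complex IV and -0.30 for complex V. Leaving out single arrays moved these medians by more than 1.5 times: complex I ran from -0.30 without WT replicate 2 to -0.068 without iTreg replicate 2, and complex III from -0.45 without WT replicate 1 to -0.11 without WT replicate 3. Complex II ran from -0.31 without WT replicate 2 to 0.028 without iTreg replicate 2, and complex IV from -0.20 to -0.016 without the same arrays. Standard errors ran from 0.25 to 0.61 with a median of 0.32. The 95% interval lay within 1 log2 unit of 0 for 43 members, while it included -1 for 40 members and 1 for 6. A unit of this scale is a 2-fold difference in signal + 16. For dim genes a 2-fold difference in signal is less than 1 unit, so it can lie inside such an interval.

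**Figure D1:**
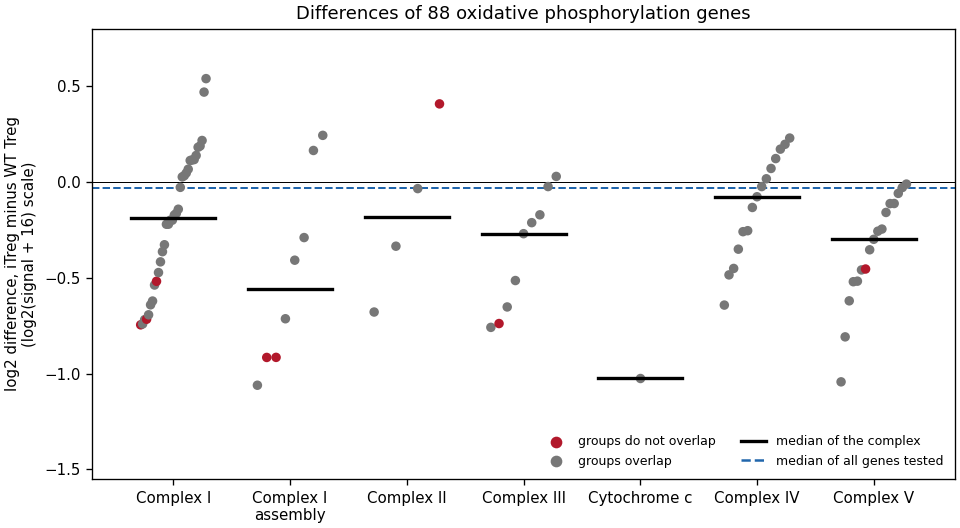
Log2 difference of each of the 88 tested members, iTreg minus WT Treg, by complex; black bars are the medians of the complexes, the dashed line is the median of all genes tested, and red points are members whose groups do not overlap. Most points lie between -0.75 and 0.25, all 17 of complex V lie below 0, and 8 points are red.

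The lean was carried by 1 array more than by the others. WT replicate 3 had the highest value of the 6 arrays for 54 of the 88 members (61.4%), where it was highest for 20.7% of all genes tested. As a median over the members, it lay 0.45 log2 units above the members' own means, and the other 5 arrays lay between -0.15 and 0.029. WT replicate 2, at -0.13, was level with iTreg replicate 2, also at -0.13. At the other end, iTreg replicate 3 was lowest for 37 members (42.0%), against 27.3% of all genes. Members are bright genes, 62 of them in the top 25% of level among the genes tested, and all genes at that level had a median deviation of 0.16 on WT replicate 3, against 0.46 for the 62 members in it.

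**Figure D2:**
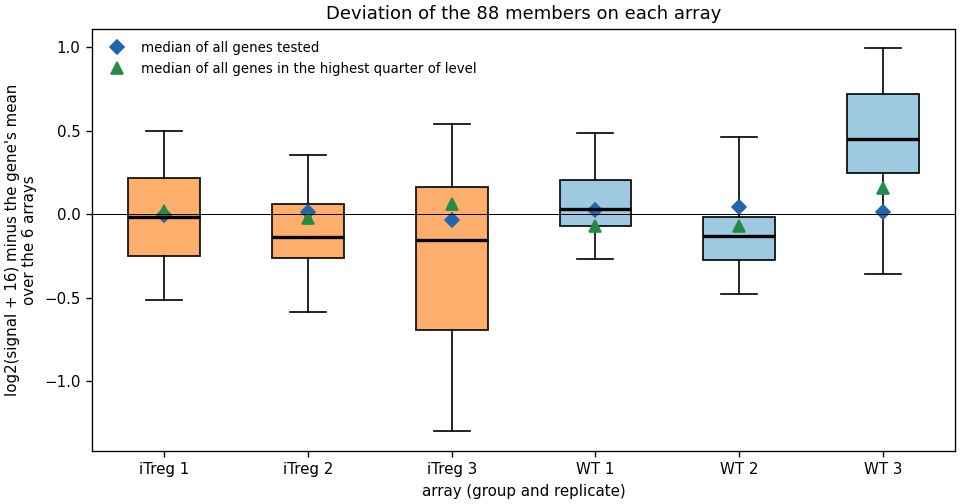
Deviation of log2(signal + 16) from each gene's mean over the 6 arrays, as boxes (median, quartiles, 5th and 95th percentiles) over the 88 members; diamonds and triangles are the medians of all genes tested and of all genes in the top 25% of level. The box of WT replicate 3 lies above the others with a median of 0.45, and the box of iTreg replicate 3 is the widest.

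Both replicate 3 arrays stood apart in the spike-in signal. The hybridisation spike-in controls, added in fixed amounts, had a mean log2 signal of 12.87 on iTreg replicate 3 and 12.90 on WT replicate 3, against 12.13 to 12.56 on the other 4 arrays. Gapdh, read as the log2 of 3′ over 5′ signal to gauge RNA integrity, gave 3.06, 2.48 and 3.38 on iTreg replicates 1, 2 and 3 and 2.28, 2.53 and 2.34 on the WT arrays, so WT replicate 3 lay between the other WT arrays. Actin, read the same way, gave 0.38, 0.25 and -4.37e-04 in iTreg and 0.14, 0.27 and 0.32 in WT, and iTreg replicate 3, highest by Gapdh, was lowest by actin. The part of these measures in the lean was not tested. Without WT replicate 3 the members' median difference was -0.11 against -0.060 for all genes, 54 of 88 differences were negative, and 0 members had an unadjusted p under 0.05. Without iTreg replicate 3 the median was -0.20, again with 0 such members, and without both replicate 3 arrays it was -0.053 against -0.034 for all genes. Leaving out WT replicate 2 gave -0.37 with 9 members lower at that threshold, and leaving out iTreg replicate 2 gave -0.15 with 11. Of all genes tested, 3.61% and 6.45% were lower at that threshold, respectively. Leaving out both arrays with label doubts gave -0.32 with 2 lower and 1 higher, where 3% of all genes were lower. That share was 3.22% without WT replicate 3 and 3.78% without iTreg replicate 3.

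**Figure D3:**
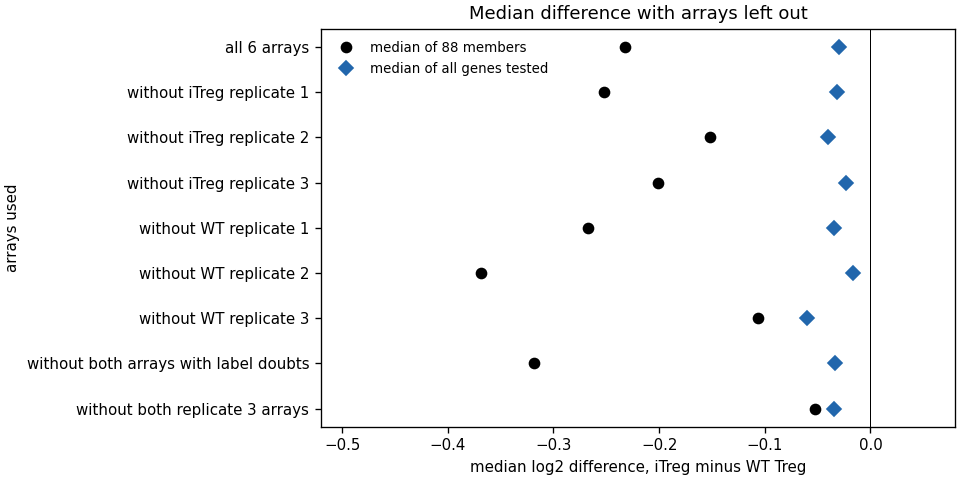
Median log2 difference of the 88 members (circles) and of all genes tested (diamonds) with all 6 arrays and with arrays left out. The members' median lies between -0.37 and -0.11 without single arrays and at -0.053 without both replicate 3 arrays, near the median of all genes.

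The regulatory sequences of these genes are shown because some of them hold motifs of factors known to drive such genes. These factors are nuclear respiratory factor 1 (NRF-1), GABP of the ETS family, and YY1. RefSeq windows of 250 bases before to 50 after a gene's start (build GRCm38.p6) were at hand for 75 of the 92 members and for 27025 genes in all, and each was searched on both strands. The NRF-1 core GCGCATGC, which can overlap its own reverse complement, was found for 16% of members and 3.05% of all genes, the ETS core CCGGAAG for 25.3% and 9.93%, and the YY1 core AAGATGGC for 13.3% and 3.19%. Any of the 3 was found for 34 of the 75 members, 45.3%, against 14.9% of all genes. The shares are a description, and a match is not a bound site. The members with an NRF-1 match had a median log2 difference of -0.33 (n = 12) and those without -0.22 (n = 61), and for the ETS core it was -0.33 (n = 19) and -0.25 (n = 54). For the YY1 core it was -0.17 (n = 10) and -0.26 (n = 63), so the direction of these contrasts was not the same for all 3 motifs.

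Below are the 150 bases before the start, 5′ to 3′ on the gene's strand, for the member of each complex with the smallest p among those with a match there; capitals mark the matches. All 6 genes lie on the minus strand: Cycs at chr6:50566570-50566719, Ndufs3 of complex I at chr2:90904722-90904871, Sdhd of complex II at chr9:50603850-50603999, Uqcrh of complex III at chr4:116075071-116075220, Cox6b1 of complex IV at chr7:30626115-30626264 and Atp5j of complex V at chr16:84834977-84835126.
Cycs: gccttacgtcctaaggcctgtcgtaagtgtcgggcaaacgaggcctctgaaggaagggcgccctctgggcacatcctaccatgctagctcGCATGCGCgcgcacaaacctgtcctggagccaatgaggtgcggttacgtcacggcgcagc
Ndufs3: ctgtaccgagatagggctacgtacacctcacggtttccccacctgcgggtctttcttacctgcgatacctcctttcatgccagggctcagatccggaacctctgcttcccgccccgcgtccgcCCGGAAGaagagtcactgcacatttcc
Sdhd: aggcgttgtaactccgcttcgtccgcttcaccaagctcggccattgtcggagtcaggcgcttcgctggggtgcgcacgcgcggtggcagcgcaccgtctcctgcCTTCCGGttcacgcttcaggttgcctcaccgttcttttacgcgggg
Uqcrh: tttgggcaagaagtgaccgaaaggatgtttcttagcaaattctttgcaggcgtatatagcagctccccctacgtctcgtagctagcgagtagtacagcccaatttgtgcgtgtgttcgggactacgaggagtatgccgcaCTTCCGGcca
Cox6b1: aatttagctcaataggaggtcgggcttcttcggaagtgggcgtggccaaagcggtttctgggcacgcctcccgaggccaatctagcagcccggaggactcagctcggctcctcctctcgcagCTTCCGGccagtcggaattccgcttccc
Atp5j: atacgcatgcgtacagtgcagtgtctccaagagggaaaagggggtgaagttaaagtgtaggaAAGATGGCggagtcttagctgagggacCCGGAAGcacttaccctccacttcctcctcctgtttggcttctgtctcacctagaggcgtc
The match of Cycs is the NRF-1 core on the opposite strand, beginning 60 bases before the start. Ndufs3 has the ETS core on its own strand from 27 bases before the start, and Sdhd, Uqcrh and Cox6b1 have it on the opposite strand from 46, 10 and 28 bases before it. Atp5j holds both a YY1 core, from 88 bases before the start, and an ETS core, from 61.

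Cytochrome c, encoded by Cycs, had the smallest p of all members. Its signal was 1006, 1571 and 705 on the iTreg arrays and 1981, 1431 and 3391 on the WT arrays (replicates 1, 2 and 3). The groups overlapped, since iTreg replicate 2 lay above WT replicate 2. The log2 difference was -1.02 (SE 0.37, limma adjusted p = 0.556). It was -0.69 without WT replicate 3, -1.32 without iTreg replicate 2 and -0.42 without both replicate 3 arrays. Another probe set of Cycs differed by -0.94, with groups that did not overlap, and one more, the one used when probe sets specific by name are taken, by -0.24.

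In complex I, 21 of 34 members had negative and 13 positive differences. Its core, the conserved catalytic subunits of the arm that takes up NADH, was measured through 6 genes. Their median was 0.13, with 4 of 6 positive, while the 28 accessory subunits, which surround and stabilise the core, had a median of -0.20. With probe sets specific by name, Ndufs7, Ndufv1, Ndufv2 and Ndufs8, named here after their values were seen, differed by -0.014, -0.017, -0.39 and -0.41. Ndufs3 stayed at -0.75 there, and Ndufs1 has no such probe set. The positive median of the core thus rested on the probe sets chosen. The core member Ndufs3 had signals of 575, 743 and 361 in iTreg and 926, 793 and 1029 in WT. All iTreg values lay below all WT values, and the log2 difference was -0.75 (SE 0.32, limma adjusted p = 0.629). It was -0.47 without iTreg replicate 3. The other extreme of the core was Ndufs1, an iron-sulfur subunit named here after its value was seen, with 722, 447 and 458 in iTreg and 456, 368 and 320.2 in WT, a difference of 0.47. There WT replicate 3 was the lowest array, the opposite of its place for most members.

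Among the accessory subunits, Ndufb6 of the membrane arm had signals of 650, 880.2 and 744 in iTreg and 884, 1131 and 1929 in WT. The groups did not overlap, although iTreg replicate 2 and WT replicate 1 were nearly level. Its difference was -0.72 (limma adjusted p = 0.651), and its second probe set differed by -0.62, also without overlap. Ndufs4, an accessory subunit whose loss impairs the whole complex, had 875, 949.7 and 547 against 1454, 878 and 1625, and iTreg replicate 2 lay above WT replicate 2. Its difference of -0.72 (limma adjusted p = 0.652) was that of 1 probe set, and its other 3 differed by 0.16, 0.30 and 0.15. Ndufa6 differed by -0.74, Ndufab1, which is also the mitochondrial acyl carrier protein, by -0.69, and Ndufb3 by -0.52. Of these 3 only Ndufb3 had groups without overlap, and their adjusted p-values lay between 0.701 and 0.719. WT replicate 3 was the highest array for 19 of the 34 members of the complex.

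**Figure D4:**
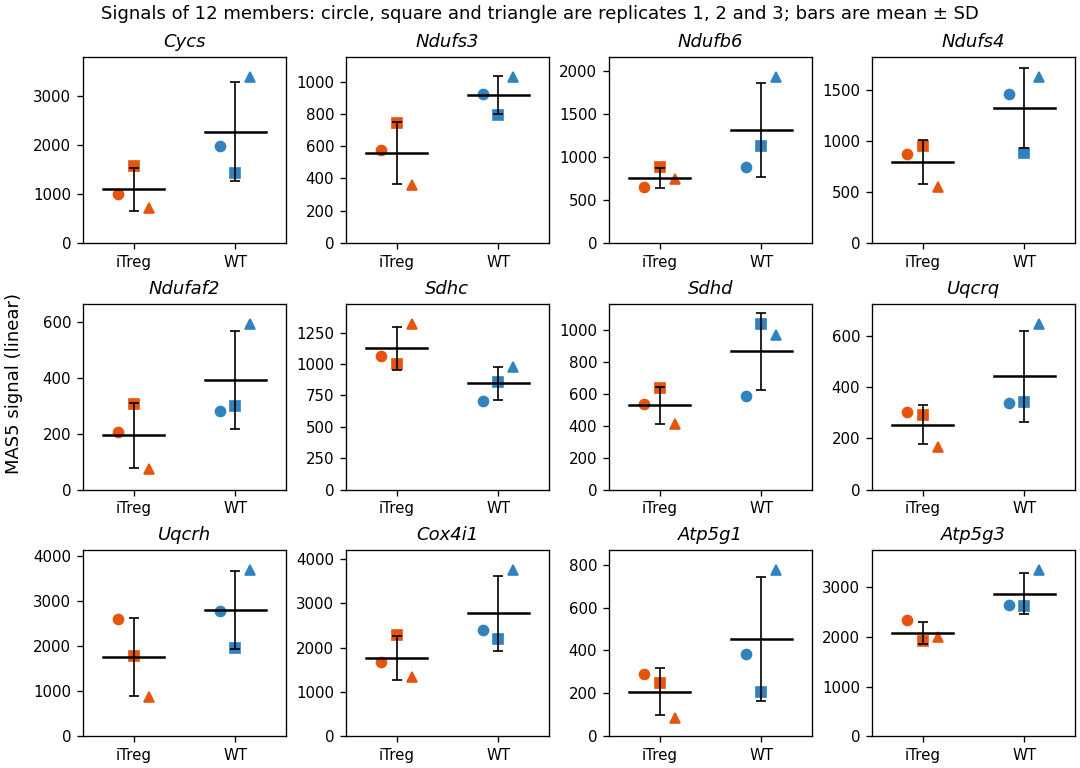
MAS5 signal of 12 members on each array (orange iTreg, blue WT; circles, squares and triangles are replicates 1, 2 and 3), with the mean ± SD as bars, each panel on its own scale from 0. The WT triangle, replicate 3, is the highest point in 10 of the 12 panels, Sdhc and Sdhd being the others, and Sdhc is the panel in which iTreg lies above WT.

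The 8 assembly factors of complex I, which help to build it and are not part of the finished enzyme, had the lowest median, -0.56, with 6 negative and 2 positive. Ndufaf1, a chaperone of the membrane arm, had signals of 30.8, 49.7 and 17.0 in iTreg and 57.1, 78.3 and 82.6 in WT, without overlap. Its difference was -0.92 (SE 0.39, limma adjusted p = 0.633), at signals close to the controls. Ndufaf2 had 206, 305 and 73.0 against 282, 301 and 594, with iTreg replicate 2 above 2 of the WT arrays, and differed by -1.06 (limma adjusted p = 0.656). Array iTreg replicate 3 was the lowest for 7 of the 8 factors. Without it their median was -0.29, and without both replicate 3 arrays it was -0.14.

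Complex II, succinate dehydrogenase, is the only one of the 5 that is also an enzyme of the TCA cycle. None of its 4 subunits passed the test, and 3 of the 4 differences were negative. Sdhc, a membrane anchor, had signals of 1062, 998 and 1322 in iTreg and 705, 859.6 and 973 in WT. All iTreg values lay above all WT values, which made it the 1 member with that order. The difference was 0.41 (SE 0.27, limma adjusted p = 0.769), but the second probe set of Sdhc differed by -0.82, and with the mean of its probe sets the difference was -0.21. Sdhd, the other anchor, had 536, 639 and 411 in iTreg and 589.8, 1042 and 970.2 in WT. Only WT replicate 1 fell within the iTreg range, and the difference was -0.68 (SE 0.32, limma adjusted p = 0.657); its other probe set differed by -0.25. The flavoprotein Sdha had 2915, 2589 and 3177 against 2418, 2747 and 3870.2, with a difference of -0.034 and a 95% interval of -0.62 to 0.55. The iron-sulfur subunit Sdhb differed by -0.33, with an interval of -1.11 to 0.44.

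In complex III the subunits that carry electrons and the small subunits had unequal values. Cyc1, cytochrome c1, had signals of 412, 562 and 733 in iTreg and 479.7, 667 and 499 in WT, a difference of 0.030 with a 95% interval of -0.65 to 0.71. The Rieske iron-sulfur protein Uqcrfs1, named here for its role after its value was seen, differed by -0.023. The 5 small subunits were all negative, with a median of -0.65. Uqcrh, the hinge protein that helps cytochrome c dock, had 2602, 1787 and 876 in iTreg and 2780.3, 1955 and 3682 in WT, a difference of -0.76 (limma adjusted p = 0.701). Its second probe set also differed by -0.76. Here iTreg replicate 1 lay above WT replicate 2, and iTreg replicate 3 was far below the other arrays. Uqcrq had 303, 290.3 and 167 against 337, 339.8 and 646, without overlap, and differed by -0.74 (limma adjusted p = 0.701), while its other probe set above the filter differed by 0.39. Uqcr11 and Uqcr10 differed by -0.65 and -0.51, with overlapping groups. Uqcr11 ran from -0.96 without WT replicate 2 to -0.33 without WT replicate 3, and Uqcr10 from -0.95 without iTreg replicate 2 to -0.097 without iTreg replicate 3.

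In complex IV no tested member had groups that parted, where 7.78% of all genes tested parted lower and 5.1% higher. That count rested on the probe sets chosen. Among the unused probe sets of Cox5b, named here after its values were seen, one parted lower (-0.65) and another higher (0.81). The median of the complex, -0.076, was nearest to that of all genes. Cox4i1, the widely expressed form of the subunit that responds to ATP, had signals of 1682, 2295 and 1333 in iTreg and 2401, 2195 and 3749 in WT. Only iTreg replicate 2 reached into the WT range, and the difference was -0.64 (SE 0.30, limma adjusted p = 0.672). Cox6c differed by -0.48, Ndufa4, once counted with complex I and now with complex IV, by -0.45, and Cox7a2 by -0.35, each highest on WT replicate 3. Cox7a2l, which links complexes III and IV into supercomplexes, differed by -0.076 with a 95% interval of -0.67 to 0.52. Cox6b1 and Cox6a1 differed by -0.023 and 0.018, and their other probe sets by -0.52 and 0.067. Cox8a had 339, 206 and 346 in iTreg and 340.2, 288 and 331 in WT, a difference of -0.13. Cox7c, named here for the low signal of its probe set after its value was seen, had 138, 74.4 and 8.28 against 70.1, 56.3 and 21.9. The spread within iTreg was thus larger than the difference between the group means. Both replicate 3 values lay below the brightest control, and its other probe set was at 18.1 or less on every array. Whether these probe sets measure the level of the gene was not tested.

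Several complex IV subunits have second forms made in muscle, heart, testis or lung, and these served as a check of the cells. Cox4i2, Cox7b2, Cox8b and Cox8c did not reach the level for testing, and no array gave them more than 33.9. Ndufa4l2 had a mean signal of 24.5 ± 5.19 (SD, n = 3) in iTreg and 22.4 ± 3.82 in WT, and 5 of its 6 values were within the controls' range. Cox7a1 and Cox6b2 were at or below the brightest control on 4 of 6 arrays each. Cox6a2, the muscle form, was the exception, with 85.0, 57.0 and 79.8 in iTreg and 66.5, 105.7 and 27.6 in WT, and only WT replicate 3 lay in the controls' range. Its second probe set was at 9.56 or less on every array. Their widely expressed counterparts Cox4i1, Cox6a1, Cox6b1, Cox7a2, Cox7a2l, Cox8a and Ndufa4 lay above the controls on all 6 arrays.

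**Figure D5:**
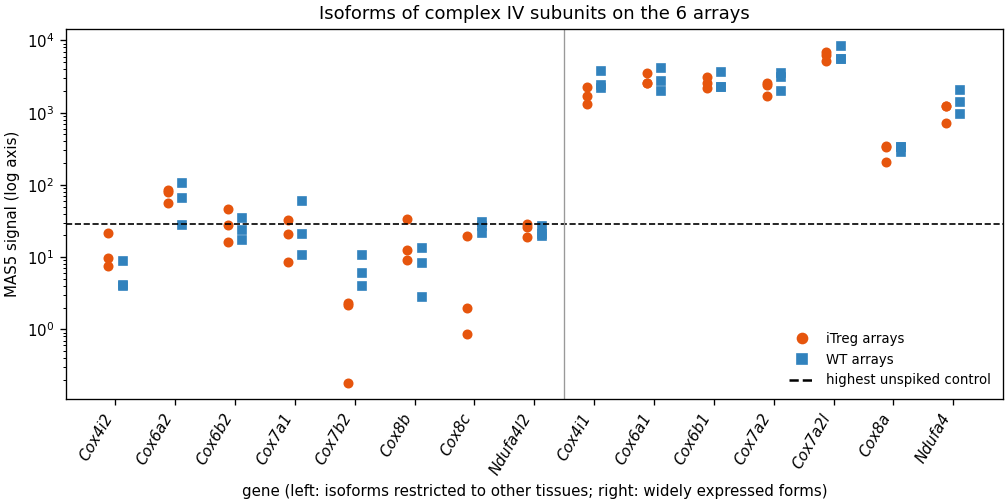
MAS5 signal on a log axis of 8 complex IV isoforms known from other tissues (left) and of 7 widely expressed forms (right) on each array, with the brightest unspiked control, 28.5, as a dashed line. The forms on the right lie above the line on every array, and those on the left lie mostly around or below it, Cox6a2 being above it on 5 of 6 arrays; levels of different genes are not compared.

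Complex V, the ATP synthase, was the complex in which all members had the same sign, with 17 of 17 differences negative, from -1.04 to -0.010, and 0 called. WT replicate 3 was highest for 15 of the 17. The 5 subunits of the catalytic F1 head had a median of -0.16, the 3 genes of the proton-turned c ring -0.45, the 4 of the peripheral stalk -0.29 and the 5 small membrane subunits -0.52. Without WT replicate 3 the median of the complex was -0.041, and without WT replicate 2 it was -0.51. Without WT replicate 3 single members ran from -0.57 (Atp5g1) to 0.18 (Atp5a1), so the shared sign was not kept. Nor was it with all 6 arrays scaled to a common median, where Atp5a1, Atp5d and Atp5h were 0.081, 0.031 and 0.063. Unused probe sets of Atp5c1, Atp5d and Atp5j2 differed by 0.15, 0.011 and 0.17, and a further one of Atp5j2 by -0.88. Other unused probe sets of the complex above the level for testing were negative. Atp5c1, Atp5d, Atp5h and Atp5j2 are named here after their values were seen.

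Within complex V, Atp5g1, 1 of the 3 genes that encode the same mature c subunit, had signals of 289, 248.5 and 83.3 in iTreg and 381, 208 and 773 in WT. WT replicate 2 lay below 2 of the iTreg arrays, and the difference was -1.04 (SE 0.52, limma adjusted p = 0.698). Atp5g3, another of the 3, had 2336, 1913 and 2004 against 2649.5, 2615 and 3339, without overlap. Its difference was -0.45 (SE 0.25, limma adjusted p = 0.717), the smallest error among the members. Atp5md, of the membrane part, differed by -0.62, and Atp5j, a peripheral stalk subunit, by -0.52. Both were highest on WT replicate 3 and lowest on iTreg replicate 3. Atp5a1, the alpha subunit, named here for its role after its value was seen, differed by -0.010 with a 95% interval of -0.60 to 0.58.

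The genes around the complexes were described with lists chosen by function. The 29 tested genes that assemble complexes II to V had a median of -0.14, with 0 called. At an unadjusted limma p under 0.05, 4 were lower (13.8%, against 4.58% of all genes tested). The groups parted in the lower direction for 2 of the 29 (6.9%, against 7.78% of all genes). Tmem70, which helps to assemble complex V, had 183, 109.3 and 129 in iTreg and 247, 285 and 393 in WT, without overlap, a difference of -1.05 (limma adjusted p = 0.523). Sdhaf4, of complex II assembly, differed by -1.06. The 7 other complex I assembly genes had a median of -0.017; Nubpl, an iron-sulfur carrier, differed by 1.11 and Acad9 by -0.61. The 16 TCA cycle genes had a median of -0.18, which was -0.30 without iTreg replicate 1, -0.073 without iTreg replicate 3 and -0.037 without both replicate 3 arrays. Idh2, the NADP-dependent isocitrate dehydrogenase, had 373, 262 and 319.99 in iTreg against 142, 189.9 and 146 in WT, above in every array, a difference of 0.93 (limma adjusted p = 0.556), and fumarase, Fh1, differed by -0.94.

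The 76 mitochondrial ribosomal protein genes, whose products translate the subunits encoded in mitochondria, had a median of -0.39. Of them 61 were negative, 10 were lower at an unadjusted p under 0.05 (13.2%) and 19 parted in the lower direction (25%), against 4.58% and 7.78% of all genes, and 0 were called. Mrpl16 had 396, 509 and 117 in iTreg and 633, 808 and 1085 in WT, a difference of -1.45 (limma adjusted p = 0.492), and Mrpl10 differed by -0.97. The median of the list ran from -0.49 to -0.30 without single arrays and was -0.26 without both replicate 3 arrays. The 14 genes of protein import had a median of -0.38, but -0.16 without iTreg replicate 3 and -0.59 without iTreg replicate 1. The small chaperone Timm10 had 121, 105 and 26.7 in iTreg against 329, 191 and 282 in WT, a difference of -1.64 (limma adjusted p = 0.405), and Grpel1 differed by -0.92.

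Each of the remaining lists had at most 1 gene lower and 1 higher at an unadjusted limma p under 0.05, and 0 called. The largest share lower was in the inner membrane list, with 1 of 5 lower (20%) and 1 higher, against 4.58% and 3% of all genes tested. In that list 2 genes parted in the lower direction (40%) and 1 in the higher, against 7.78% and 5.1% of all genes. Biogenesis regulators had a median of -0.086 over 19 genes; the mitochondrial transcription factor Tfb2m differed by 1.17, with overlapping groups, and Mterf4 by -0.66. The list's median was 0.073 without WT replicate 2, so it kept no single direction. The 12 genes of coenzyme Q synthesis had -0.12, with Coq4 at -0.91 and Coq10a at 0.58, and the sign of that median turned to 0.087 without iTreg replicate 3. The 7 genes of other electron entries had -0.58, which was -0.38 without iTreg replicate 3 and -0.25 without both replicate 3 arrays. Etfb, the beta subunit of the electron transfer flavoprotein, had 347, 293 and 140.3 in iTreg and 473, 459 and 645 in WT, a difference of -1.04 (limma adjusted p = 0.541), and Dhodh differed by -0.95. The 8 genes of nucleotide, phosphate and pyruvate exchange had -0.018, with the outer membrane channel Vdac1 at 0.65 and the ADP/ATP carrier Slc25a4 at -0.26. Of the 5 genes that shape the inner membrane, Immt, the mitofilin scaffold of cristae, had 237, 237 and 154 in iTreg against 489.5, 373 and 580.1 in WT, a difference of -1.15 (limma adjusted p = 0.405). Chchd6, of the same complex, went the other way with 124, 86.1 and 136 against 50.01, 19.5 and 6.73, a difference of 1.78 (limma adjusted p = 0.284). That difference rested on the probe set chosen: it was 0.13 with probe sets specific by name and 0.96 with the mean of probe sets, and it ran from 1.42 to 2.19 without single arrays. Of the uncoupling and related carriers, Slc25a14 and Slc25a27 were tested, with 0.43 and -0.075. The median of the exchange, inner membrane, other complex I assembly and uncoupling lists also turned in sign when single arrays were left out.

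Probe sets of 1 gene often disagreed. Of the 88 members, 47 had more than 1 probe set above the level for testing, and in 21 of these the probe sets differed in sign. Of the 92 genes, 40 had a single probe set, so no second measurement of them exists on these arrays. Among the members named above, Atp5c1, Atp5d, Atp5j2, Cox5b, Cox7a2l, Cox8a and Ndufab1 had probe sets of opposite sign. So did Ndufs4, Ndufs7, Ndufs8, Ndufv1, Ndufv2, Sdhc and Uqcrq. The probe sets of Cycs, Ndufb6, Sdha, Sdhd, Uqcrh, Uqcr10, Cox6a1, Cox6b1, Cox6c, Cox7a2, Atp5a1 and Atp5h kept the sign of the one used.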

How the data were processed

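Total RNA was extracted with Trizol, per the labels' protocols, and measured on 6 biotin-labelled Affymetrix arrays. The authors deposited MAS5 intensity signals on a linear scale, per the submitters' processing notes; no version is named in the sources used here. Each array's 2% trimmed mean was 150.0, so arrays had been scaled before deposit. Of 45101 probe sets, those with 1 gene symbol were used, with symbols updated through RefSeq gene IDs where they matched (no member changed name).

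Signals were transformed as log2(signal + 16), which understates differences of dim genes. The probe set with the highest mean over the 6 arrays stood for a gene, and genes at or above the 40th percentile (4.99) were tested with limma 3.58.1 in R 4.3.3, with an intensity trend, two-sided; the script was tested on simulated data. The number of arrays limits the precision. The unspiked level is the maximum of 27 bacterial control probe sets. Specific by name means no ending _a_at, _s_at or _x_at.

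The members and lists were chosen with earlier results of these data known. Named were the members with the smallest p in each complex (6 in complex I, 2 among its assembly factors, 4 each in III, IV and V), all of complex II, Cyc1, Cycs, the complex IV isoforms and the 2 genes of each other list with the smallest p; others are marked in the text. The promoter windows are those of RefSeq, build GRCm38.p6.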

Additional observations from a re-analysis of the deposited data

How the results depend on the processing

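Over 20 alternatives 0 members were called in each, and the lowest adjusted p of a member was 0.277. They varied the pseudocount (1 or 64), the scaling (quantile or median), the filter (none or the 60th percentile), the variance model (no intensity trend, robust, array weights), the choice of probe set (mean of all, or names without a suffix), the replicate block and the arrays left out. Over all genes 3 were called, but 0 with a pseudocount of 1 or no filter, 8 with median scaling, 14 with array weights, and 0 to 1 with any array left out. Members lower at an unadjusted limma p under 0.05 numbered 6 of 88, but 0 with median scaling, 1 with array weights and 3 without the trend. With probe sets specific by name they numbered 10 of only 68 members tested. Of all genes tested, 4.58% were lower at that threshold with the settings first used. The share was 2.81% with median scaling, 4.7% with array weights, 4.67% without the trend and 4.6% with probe sets specific by name. The members' median difference stayed negative throughout, from -0.37 to -0.11 without single arrays, and it moved by more than the replicate error only to -0.053 without both replicate 3 arrays. With median scaling it was -0.14, with 64.8% of members negative, while the median of all genes was 0.048. The replicate numbers are shared by the titles only and were therefore not taken as pairs. Same-numbered arrays of the 2 groups correlated at 0.17, 0.046 and 0.13 in their deviations from the group means. Each array of replicates 1 and 3 and WT replicate 2 correlated best with its own number, and iTreg replicate 2 with WT replicate 1 (0.053). Whether same-numbered arrays share a batch was not tested. With the replicate block 0 members were called and 6 were lower at an unadjusted limma p under 0.05, where 5.33% of all genes were lower. Of 951 recomputed differences of named genes, 24 turned in sign. With probe sets specific by name these were Uqcrq (0.39), Atp5g1 (0.061), Slc25a4 (0.38) and Vdac1 (-0.25). The Atp5g1 probe set taken there had signals of 2.68 to 28.2, below the brightest control on every array, and that of Uqcrq 17.9 to 132. Without both replicate 3 arrays the genes that turned were Uqcr10 (0.055), Cox6c (0.077), Ndufa4 (0.075), Sdha (0.091), Cyc1 (-0.23) and Slc25a4 (0.099). With median scaling Sdha was 0.057 and Slc25a27 0.029, with array weights Sdha was 0.040 and Cyc1 -0.13, and with the mean of probe sets Sdhc was -0.21. Without single arrays the range was -0.18 to 0.16 for Sdha, -0.57 to 0.013 for Sdhb, -0.17 to 0.24 for Cyc1 and -0.58 to 0.28 for Slc25a27. Without iTreg replicate 2, Sdha, Sdhb and Slc25a27 were 0.044, 0.013 and 0.037, and without iTreg replicate 3 Cyc1 was -0.17. Without WT replicate 1, Cyc1 was -0.056 and Slc25a27 0.077. Without WT replicate 2, Slc25a27 was 0.28, and without WT replicate 3, Sdha was 0.16 and Cyc1 -0.029. The cause of these turns was not tested. The medians of complexes I to V turned positive for complex II without iTreg replicate 2 (0.028) and for complex IV without both replicate 3 arrays (0.074), with median scaling (0.014) and with array weights (1.38e-04).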
